A study of Mus musculus with 9 samples.

Results

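The capillaries of the mouse lung are built from 2 kinds of endothelial cells (ECs), aerocytes and general capillary cells, and the values below follow 5 genes known from aerocytes (Car4, Ednrb, Tbx2, Fibin and Prx) and 5 known from general capillary cells (Gpihbp1, Plvap, Cd93, Hmcn1 and Kit) through metastatic colonization of the lung and antibody blockade of VEGF. Every probe set whose platform annotation named 1 of these genes and no other was taken, without regard to its values. In this way 9 of the 10 genes were measured by 17 of the 34945 probe sets that name a single gene, 7 probe sets for 4 aerocyte genes and 10 for 5 general capillary genes, among 18193 genes in all. Prx was not analysed here, because no probe set was listed under its name.

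ECs were sorted from lungs of NSG mice, an immunodeficient strain without mature lymphocytes, as CD31+ cells that lacked CD45, CD11b, CD326, CD140a, CD140b and GFP, and the RNA from each sample was read on 1 Affymetrix 430 2.0 mouse array. The healthy IgG group came from age-matched mice without tumor cells that received control IgG. The metastasis IgG and metastasis B20 groups came from mice that were 6 to 8 weeks old when MDA-MB-231-LM2 cells were injected into the tail vein. This line is a GFP-carrying, lung-colonizing derivative of a human breast cancer line. These mice received either control IgG or the anti-VEGFA antibody B20.4.1.1 at 10 mg/kg, 2 times a week, and the lungs were harvested on day 21. Each group holds 3 arrays, which the labels name biological replicates, and the study describes metastatic mice that were selected for a comparable bioluminescent load. The 3 groups therefore share the NSG host and antibody injections. Metastatic lungs came from a single cancer line, and ECs inside and outside the nodules of a lung were pooled in the sort.

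Aerocytes are large, thin cells that line most of the gas-exchange surface and have no known counterpart in other organs. General capillary cells are smaller, resemble capillary ECs elsewhere in the body, contribute to vasomotor tone and serve as progenitors that replace both kinds after injury. Aerocytes secrete apelin, whose receptor is carried by general capillary cells, and they depend on VEGFA from the alveolar epithelium.

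Promoters are shown for the 3 members that changed in a comparison below, Ednrb, Fibin and Hmcn1, and for Car4, an established aerocyte marker. The promoter set used here, derived from RefSeq (GRCm38.p6), held windows for 6 of the 10 members. The 250 bases upstream of the start of each gene are printed 5′ to 3′ on the strand of the gene, in lower case, with matches to a searched motif in capitals. They lie at chr14:103843702-103843951 on the minus strand (Ednrb), chr2:110362994-110363243 on the minus strand (Fibin), chr1:150993436-150993685 on the minus strand (Hmcn1) and chr11:84957504-84957753 on the plus strand (Car4).
Ednrb: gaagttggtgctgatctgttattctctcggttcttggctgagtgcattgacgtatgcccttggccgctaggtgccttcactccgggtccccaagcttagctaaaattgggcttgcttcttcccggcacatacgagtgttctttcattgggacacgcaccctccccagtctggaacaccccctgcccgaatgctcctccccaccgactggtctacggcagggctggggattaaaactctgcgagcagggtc
Fibin: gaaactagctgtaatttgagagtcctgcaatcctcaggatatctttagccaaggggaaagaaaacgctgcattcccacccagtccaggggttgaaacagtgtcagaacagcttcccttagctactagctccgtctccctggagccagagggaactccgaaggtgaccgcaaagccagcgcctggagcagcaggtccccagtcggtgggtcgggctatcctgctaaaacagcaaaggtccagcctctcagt
Hmcn1: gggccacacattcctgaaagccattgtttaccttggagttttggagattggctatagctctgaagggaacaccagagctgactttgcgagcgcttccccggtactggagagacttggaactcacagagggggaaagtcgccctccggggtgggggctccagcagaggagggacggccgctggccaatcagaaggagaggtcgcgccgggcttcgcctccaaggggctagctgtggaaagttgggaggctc
Car4: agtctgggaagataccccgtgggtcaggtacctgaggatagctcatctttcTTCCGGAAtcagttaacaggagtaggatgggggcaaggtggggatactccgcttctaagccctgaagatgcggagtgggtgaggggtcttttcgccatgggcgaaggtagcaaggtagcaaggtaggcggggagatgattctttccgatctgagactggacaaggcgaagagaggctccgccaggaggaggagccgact
The motifs searched on both strands were CCGGAA for ETS factors, ACGTG as the core of the hypoxia response element, TGACTCA for AP-1, the interferon-stimulated response element (GAAA, 2 free bases, GAAA) and AGATAA for GATA factors. In the windows of Ednrb, Fibin and Hmcn1 none of these letters was found, over 250 bases upstream and 50 downstream. Car4 held CCGGAA once on each strand in 1 overlapping stretch, which starts 199 bases upstream of the gene start on the reverse strand and 197 bases upstream on the forward strand. Its window also held ACGTG once, past the gene start and so outside the printed bases. Of 32851 RefSeq promoters, 12% carry CCGGAA in the 250 upstream bases. The other motifs were found upstream in 16.6% (ACGTG), 4.46% (TGACTCA), 2.98% (interferon-stimulated response element) and 9.99% (AGATAA) of them.

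The summed linear signal of 14 pan-endothelial genes lay between 112515 and 116238 in healthy arrays, between 111855 and 114860 in metastasis IgG arrays and between 112719 and 113778 in metastasis B20 arrays, and 0 of the 14 passed the test between metastasis IgG and healthy arrays (limma, adjusted p under 0.05), with 2 at an unadjusted p under 0.05. Between B20 and healthy arrays 1 of the 14 passed. This was Eng, the co-receptor endoglin, which was lower by 0.38 ± 0.08 (limma adjusted p = 0.0348) and was called in 1 of 6 fits without 1 array. Of all genes, 9.01% passed between metastasis IgG and healthy arrays and 6.44% between B20 and healthy arrays. Pecam1, which encodes the sorted antigen CD31, lay between 13.32 and 13.47 on the log2 scale in all 9 arrays. Correlations between arrays were 0.991 to 0.994 within groups and 0.977 to 0.993 between groups. The log2 difference between the 3′ and 5′ control probe sets of Actb, a measure of RNA integrity, was 0.61 to 0.62 in healthy, 0.49 to 0.55 in metastasis IgG and 0.53 to 0.62 in metastasis B20 arrays. That of Gapdh was 0.18, 0.13 and 0.10 in healthy, -0.01, -0.03 and 0.10 in metastasis IgG and 0.19, 0.10 and 0.06 in metastasis B20 arrays. The part of RNA integrity in the results was not tested. The number of arrays limits the precision of each value, and p-values measure the spread between these arrays alone.

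To ask whether capillary identity genes differ in ECs of lungs with metastases, the metastasis IgG arrays were set against the healthy IgG arrays. Ednrb fell by 0.44 ± 0.09 (log2 change ± SE) among the 4 aerocyte genes and Hmcn1 fell by 0.60 ± 0.09 among the 5 general capillary genes. These 2 of 9 genes passed limma's test at an adjusted p under 0.05, beside 9.01% of all 18193 genes in either direction and 3.46% that were lower. No member was called higher. The median log2 change was -0.26 over the aerocyte genes and 0.04 over the general capillary genes, beside -0.00 over all genes. The aerocyte median was -0.13 without metastasis IgG array 2 and -0.41 without array 3, and the general capillary median ran from 0.01 to 0.07 without 1 array. In sorted bulk ECs, fewer cells of a type and less RNA per cell cannot be told apart.

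Ednrb encodes the endothelin receptor type B, which clears circulating endothelin in the lung. Its brightest probe set (1437347_at) gave log2 values of 12.50, 12.53 and 12.61 in the healthy arrays, 12.05, 12.02 and 12.24 in the metastasis IgG arrays and 12.25, 12.06 and 12.22 in the metastasis B20 arrays. All 6 metastatic arrays lay below all 3 healthy arrays. Under IgG the level was 26.5% lower on the linear scale (adjusted p = 0.019, limma over all genes). The other probe sets moved the same way, with 11.39, 11.26 and 11.37 in healthy against 10.69, 10.65 and 10.95 in metastasis IgG arrays for 1423594_a_at (log2 change -0.58 ± 0.10), and 9.82, 9.73 and 9.67 against 9.11, 8.74 and 9.43 for 1426314_at (-0.65 ± 0.16). Fitted as single probe sets, the 3 had adjusted p of 0.025, 0.0138 and 0.0461. The gene-level call held in 2 of 6 fits that left out 1 array. It was lost without healthy array 2 or 3 or metastasis IgG array 1 or 2, where the change was -0.45, -0.41, -0.42 and -0.40 and the adjusted p lay between 0.0572 and 0.0738.

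Car4 encodes a carbonic anhydrase that is anchored to the surface of alveolar capillaries and interconverts carbon dioxide and bicarbonate. Its log2 values were 12.95, 12.85 and 12.92 in healthy, 12.80, 12.77 and 12.87 in metastasis IgG and 12.88, 12.88 and 12.84 in metastasis B20 arrays. The groups overlapped, and the log2 change under IgG was -0.09 with a 95% interval from -0.27 to 0.08 (limma adjusted p = 0.523). A second probe set (1418094_s_at, whose suffix marks probes that may match several transcripts) gave -0.16 ± 0.10 (limma adjusted p = 0.404).

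Tbx2, a T-box transcription factor, had log2 values of 11.30, 11.30 and 11.47 in healthy, 11.00, 10.98 and 11.33 in metastasis IgG and 11.09, 11.03 and 11.04 in metastasis B20 arrays. Fibin, which encodes a secreted protein named after fin bud initiation, had 10.25, 10.25 and 10.12 in healthy, 10.01, 9.51 and 10.31 in metastasis IgG and 9.85, 9.68 and 9.68 in metastasis B20 arrays. For both genes metastasis IgG array 3 lay among the healthy values or above them while the other arrays of its group lay below. The log2 changes under IgG were -0.25 ± 0.11 for Tbx2 (adjusted p = 0.223, limma) and -0.26 ± 0.18 for Fibin (adjusted p = 0.433, limma), and neither passed. Without metastasis IgG array 3 they were -0.37 (adjusted p = 0.0596, limma) and -0.44 (adjusted p = 0.129, limma), and without array 2 the change of Fibin was -0.05.

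**Figure D1:**
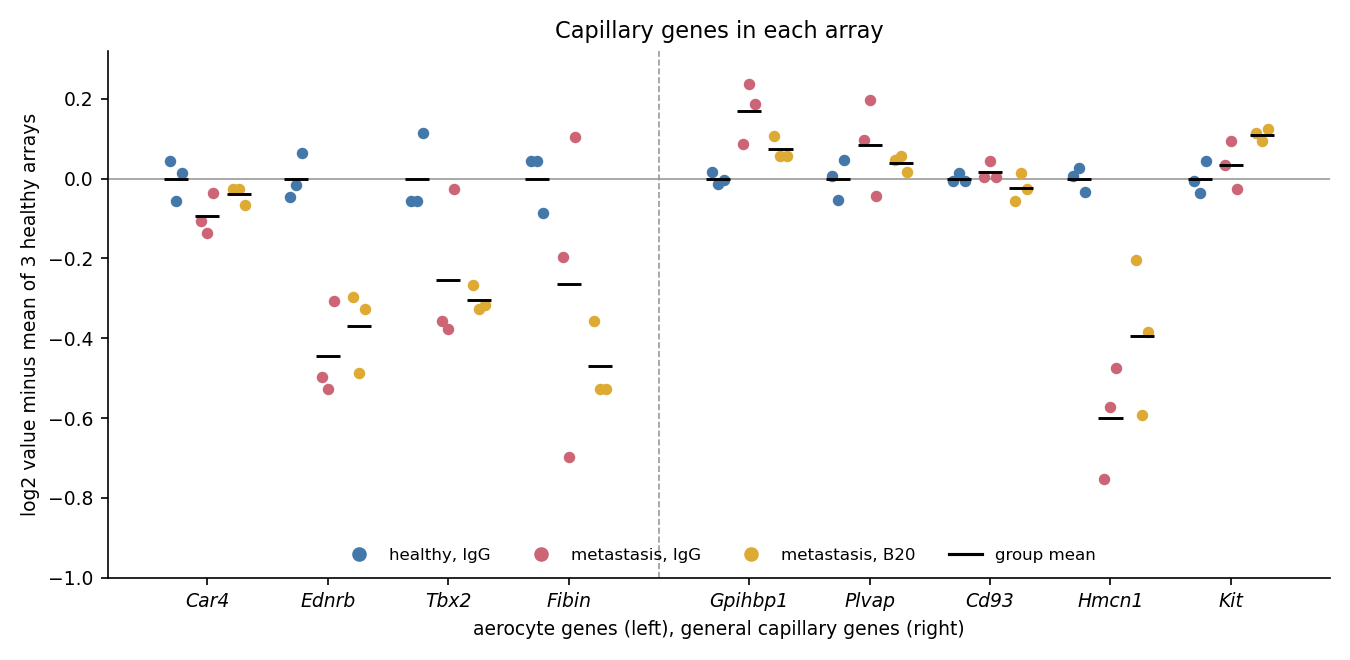
Log2 value of each of 9 capillary genes in each array, minus the mean of the 3 healthy arrays (vertical axis, log2 units), with 3 arrays per group as points and group means as bars. Ednrb and Hmcn1 lay lower in all 6 metastatic arrays than in the healthy ones, metastasis IgG array 3 stood near the healthy arrays for Tbx2 and Fibin, and Cd93 hardly spread.

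Among the general capillary genes, Hmcn1 encodes hemicentin-1, a large extracellular matrix protein of the fibulin family. Its log2 values were 11.97, 11.99 and 11.93 in healthy, 11.21, 11.39 and 11.49 in metastasis IgG and 11.76, 11.37 and 11.58 in metastasis B20 arrays. All metastatic arrays lay below the healthy ones. Under IgG the level was 34.2% lower on the linear scale (adjusted p = 0.00579, limma over all genes), and the call held in 6 of 6 fits without 1 array, with changes from -0.53 to -0.67.

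The other 4 general capillary genes did not pass. Gpihbp1 encodes the protein that carries lipoprotein lipase to the capillary lumen, and its log2 values were 12.58, 12.55 and 12.56 in healthy, 12.65, 12.80 and 12.75 in metastasis IgG and 12.67, 12.62 and 12.62 in metastasis B20 arrays. The metastatic arrays lay above the healthy ones without overlap, by 0.17 ± 0.08 under IgG (95% interval -0.01 to 0.35; limma adjusted p = 0.234). Arrays did not overlap for 3 of 9 members, Ednrb, Hmcn1 and Gpihbp1, beside 29.1% of all genes (13.6% lower and 15.4% higher).

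Plvap, the protein of the diaphragms of caveolae and fenestrae, lay between 12.00 and 12.10 in healthy and between 12.01 and 12.25 in metastasis IgG arrays (log2 change 0.09, 95% interval -0.12 to 0.29). Kit, the receptor of stem cell factor, lay between 12.37 and 12.45 in healthy and between 12.38 and 12.50 in metastasis IgG arrays (0.04, interval -0.14 to 0.21). Cd93, a transmembrane C-type lectin that binds the matrix protein multimerin-2, lay between 13.21 and 13.23 and between 13.22 and 13.26 (0.01, interval -0.15 to 0.18). The intervals of these 3 genes included 0, and the 5 probe sets of Cd93 gave changes from -0.08 to 0.12.

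Over single probe sets, 4 of 17 passed (3 of Ednrb and 1 of Hmcn1), beside 7.41% of all 34945 probe sets (2.98% lower), and the 3 of Ednrb measure 1 gene.

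**Figure D2:**
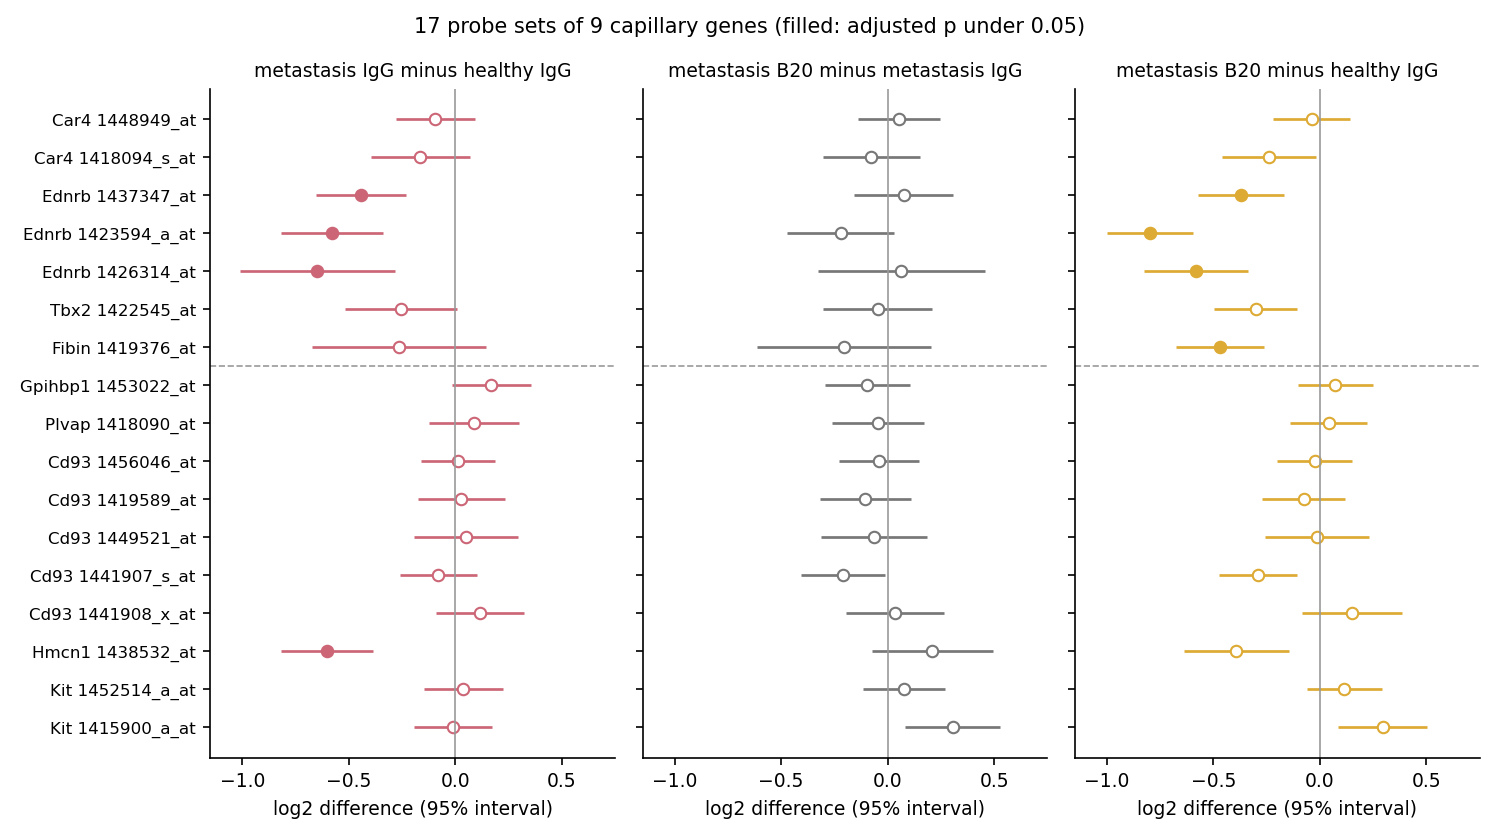
Log2 difference with its 95% interval (horizontal axis) for the 17 probe sets, aerocyte genes above the dashed line and general capillary genes below it, in 3 comparisons of 3 against 3 arrays. Filled points passed limma at an adjusted p under 0.05 over all probe sets, which were 3 of Ednrb and 1 of Hmcn1 under IgG, none between B20 and IgG, and 3 of Ednrb and 1 of Fibin between B20 and healthy arrays.

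Metastasis B20 arrays were then set against metastasis IgG arrays to ask how blockade of VEGF bears on these genes. Of the 9 members and the 17 probe sets 0 passed limma, and so did 0 of all 18193 genes (0%), of which 1462 (8.04%) had an unadjusted p under 0.05, with 0 of the 9 members among them. Members differed by at most 0.21 on the log2 scale, with medians of 0.00 over the aerocyte and -0.04 over the general capillary genes beside -0.01 over all genes. At 3 arrays per group the 95% intervals still allow changes of -0.15 to 0.30 for Ednrb, -0.61 to 0.20 for Fibin and -0.07 to 0.49 for Hmcn1.

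A few probe sets stood apart without overlap between B20 and IgG arrays, while gene-level values overlapped for all 9 members, beside 13.1% of all genes that did not overlap. The dimmer probe set of Kit (1415900_a_at) gave 11.03, 11.02 and 11.14 in metastasis IgG and 11.40, 11.48 and 11.23 in metastasis B20 arrays, with 11.04, 11.08 and 11.11 in healthy arrays. It was higher under B20 by 0.31 ± 0.10 (unadjusted p = 0.0131, limma adjusted p = 0.527 over probe sets). The brighter probe set of Kit gave 0.08 ± 0.09. A probe set of Cd93 (1441907_s_at) was lower under B20, with 11.04, 11.02 and 10.94 against 10.73, 10.84 and 10.78 (-0.21 ± 0.09, limma adjusted p = 0.637), while the 4 other probe sets of Cd93 overlapped. Ednrb 1423594_a_at was lower as well, with 10.69, 10.65 and 10.95 against 10.63, 10.44 and 10.56 (-0.22 ± 0.11, limma adjusted p = 0.706), whereas the other probe sets of Ednrb gave 0.07 and 0.06. Within each of these 3 genes the probe sets thus gave different sizes or signs, and 12.7% of all probe sets did not overlap in this comparison.

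The metastasis B20 arrays were also set against the healthy arrays, which both comparisons with healthy lungs share. Fibin fell by 0.47 ± 0.09 (adjusted p = 0.016, limma) and Ednrb by 0.37 ± 0.08 (adjusted p = 0.0391, limma), so that 2 of 4 aerocyte and 0 of 5 general capillary genes passed, beside 6.44% of all genes in either direction and 2.29% lower. Fibin was 27.7% and Ednrb 22.6% lower on the linear scale. Median changes were -0.34 over the aerocyte and 0.04 over the general capillary genes, beside -0.01 over all genes.

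Tbx2 (-0.30 ± 0.08, limma adjusted p = 0.0697) and Hmcn1 (-0.39 ± 0.11, limma adjusted p = 0.0682) missed the threshold, although their B20 arrays lay below the healthy ones without overlap. Without metastasis B20 array 1, the highest of its group, Hmcn1 passed at -0.49 (limma adjusted p = 0.0298). In all, 6 of 9 members did not overlap, 4 lower (Ednrb, Tbx2, Fibin and Hmcn1) and 2 higher (Gpihbp1 at 0.07 and Kit at 0.11, neither of which passed), beside 26.9% of all genes (13.1% lower and 13.8% higher). Over single probe sets 4 of 17 passed, beside 5.41% of all (2.09% lower), with changes of -0.37, -0.80 and -0.58 for the 3 of Ednrb and -0.47 for Fibin. Car4 (-0.04) and Cd93 (-0.03) overlapped at the gene level, but 1 probe set of each lay lower without overlap. These were 1418094_s_at (-0.24 ± 0.10, limma adjusted p = 0.205) and 1441907_s_at (-0.29 ± 0.08, limma adjusted p = 0.0774), and neither passed. The other probe sets of both genes overlapped.

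The calls under B20 depended on single arrays. Fibin passed in 2 of 6 fits without 1 array, with changes from -0.44 to -0.52, and was lost without healthy array 1 or 2 or B20 array 2 or 3 at adjusted p between 0.0582 and 0.0654. Ednrb passed in 1 of 6, with changes from -0.31 to -0.41, and was lost without any healthy array or without B20 array 2 or 3 at adjusted p between 0.0787 and 0.133.

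For a view by array, each gene was centred on its healthy mean and averaged over the 4 aerocyte and over the 5 general capillary genes. The aerocyte level was -0.29, -0.43 and -0.07 in the 3 metastasis IgG arrays and -0.24, -0.34 and -0.31 in the 3 metastasis B20 arrays, on a log2 scale where healthy arrays lay between -0.02 and 0.03. The general capillary level was -0.11, 0.00 and -0.07 under IgG and 0.00, -0.07 and -0.04 under B20. The aerocyte minus general capillary level was therefore -0.18, -0.43 and 0.00 under IgG (mean -0.20 ± 0.22 SD, n = 3) and -0.24, -0.27 and -0.27 under B20 (-0.26 ± 0.02 SD, n = 3). B20 arrays lay close together, while IgG arrays ran from the level of the healthy arrays to the lowest of all 9. Within the general capillary genes the small negative level came from Hmcn1 alone, since under IgG the group means of Gpihbp1, Plvap and Kit lay above healthy and that of Cd93 differed by 0.01 (-0.02 with arrays centred on their median).

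**Figure D3:**
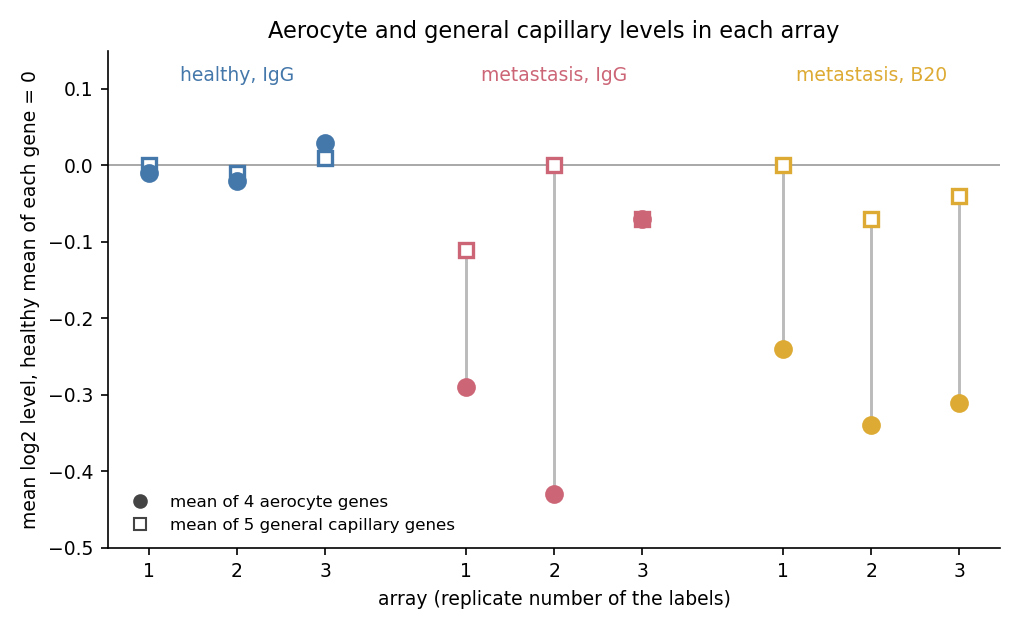
Mean log2 level of 4 aerocyte genes (filled circles) and 5 general capillary genes (open squares) in each of the 9 arrays, with each gene set to 0 at its healthy mean. The aerocyte level lay below the general capillary level in 5 of 6 metastatic arrays, and both coincided at -0.07 in metastasis IgG array 3.

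Other genes known from aerocytes (12) and from general capillary cells (12) were read beside the members. Between metastasis IgG and healthy arrays, 4 of 12 other aerocyte genes were lower and 2 higher, beside 3.46% of all genes lower and 5.55% higher. Their median log2 change was -0.21, beside -0.00 over all genes. Cdkn2b, a cell cycle inhibitor, fell by 1.04 ± 0.13 (values of 10.82, 10.78 and 10.84 in healthy against 9.93, 9.45 and 9.93 in metastasis IgG arrays). Tmeff2, which encodes a transmembrane protein with follistatin-like domains, fell by 0.73 ± 0.11, Rprml, a reprimo-like gene, by 0.70 ± 0.09, and Nckap5 by 0.58 ± 0.10. Apln, the ligand apelin, rose by 0.59 ± 0.10 and Emcn, the sialomucin endomucin, by 0.43 ± 0.10. The aerocyte list thus held genes in both directions, with 4 lower and 1 to 2 higher in the 6 fits without 1 array. Kdr, the main receptor of VEGFA, gave -0.09 and did not pass.

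Between metastasis B20 and healthy arrays, the same 4 genes, Cdkn2b (-1.04 ± 0.14), Nckap5 (-0.53 ± 0.10), Tmeff2 (-0.49 ± 0.11) and Rprml (-0.47 ± 0.09), were lower and Emcn was higher (0.50 ± 0.09), beside 2.29% of all genes that were lower and 4.15% that were higher. The median was -0.17 over the 12 genes. Without 1 array, 1 to 4 were lower and 0 to 1 higher. Apln did not pass here (0.24 ± 0.12, adjusted p = 0.308, limma).

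Of 12 other general capillary genes, Lpl, which encodes lipoprotein lipase, rose by 0.53 ± 0.12 under IgG and Bmp6, a bone morphogenetic protein, fell by 0.44 ± 0.10. The median was -0.10, and 9.01% of all genes passed in either direction. The calls of Lpl and Bmp6 each held in 1 of 6 fits without 1 array. Between B20 and healthy arrays 1 of 12 passed, beside 6.44% of all genes. This was Tbx3, a T-box repressor related to Tbx2, which was lower by 0.47 ± 0.10 (in 1 of 6 fits without 1 array). Tbx3 had 12.80, 12.89 and 12.85 in healthy, 12.56, 12.11 and 12.55 in metastasis IgG and 12.57, 12.27 and 12.29 in metastasis B20 arrays. No array of either metastatic group overlapped the healthy ones, but under IgG its change of -0.44 ± 0.13 did not pass (adjusted p = 0.0716, limma). Of the 12 general capillary genes 9 lay below 0 in each comparison with healthy arrays. Their summed linear signal was 98775 to 102755 in healthy, 86588 to 96291 in metastasis IgG and 91038 to 94666 in metastasis B20 arrays. That of the 12 aerocyte genes was 56313 to 59629, 51956 to 55544 and 53058 to 54800. Neither sum overlapped between healthy and metastatic arrays.

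**Figure D4:**
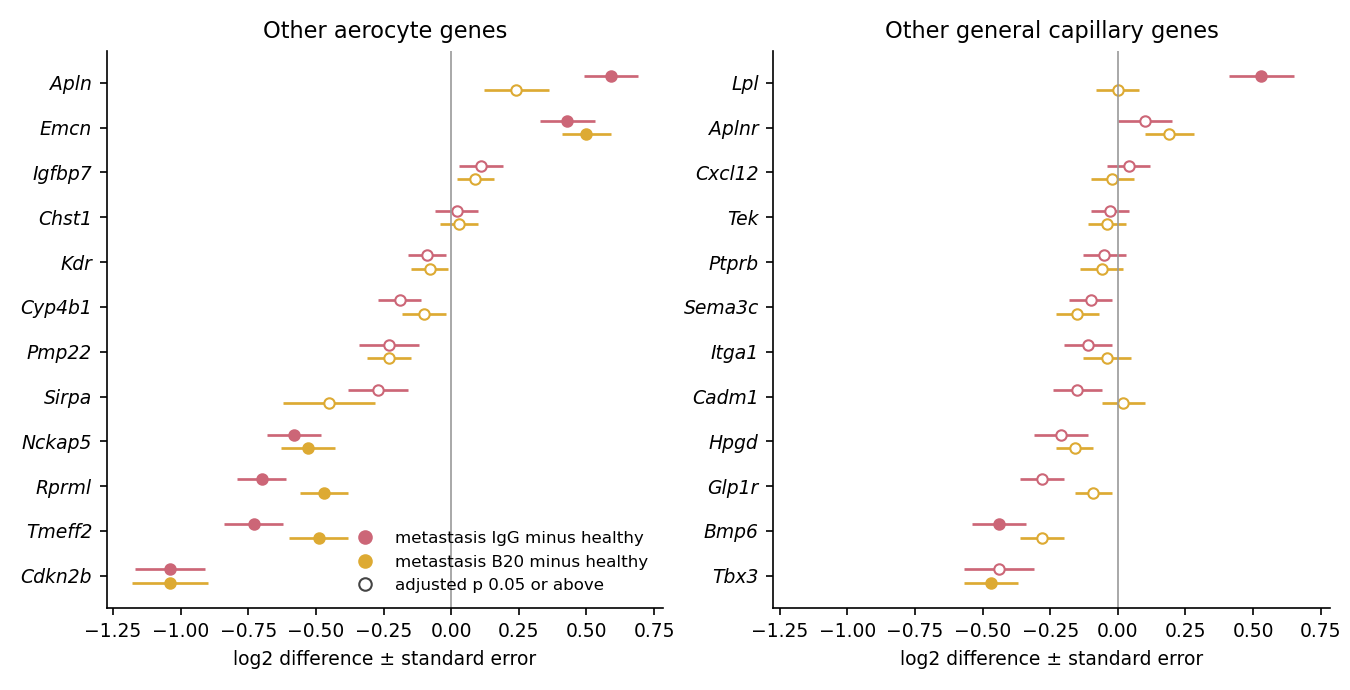
Log2 difference from healthy arrays with its standard error (horizontal axis) for 12 other aerocyte and 12 other general capillary genes under IgG and under B20, 3 arrays per group, filled where limma's adjusted p was under 0.05. The lower aerocyte genes reached -1.04 (Cdkn2b) in both, while Apln and Emcn stood on the other side of 0. In each comparison 8 of 12 aerocyte and 9 of 12 general capillary genes lay below 0, the latter at medians of -0.10 and -0.05.

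The partners of the members' proteins were read next, beside the 9.01% of all genes called under IgG and the 6.44% called between B20 and healthy arrays. In the endothelin system (6 genes measured), Ednrb was lower and Ece2, an endothelin-converting enzyme, was higher by 0.56 ± 0.10 under IgG. Edn1, the ligand endothelin-1, had 12.54, 12.47 and 12.42 in healthy and 12.83, 12.42 and 12.74 in metastasis IgG arrays (0.19 ± 0.12, adjusted p = 0.389, limma). The ligand values overlapped between groups where the receptor values did not.

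Kitl, which encodes the ligand of Kit, had 12.64, 12.56 and 12.63 in healthy, 12.13, 12.33 and 12.50 in metastasis IgG and 12.34, 12.05 and 12.30 in metastasis B20 arrays. These metastatic arrays lay below the healthy ones, yet the changes of -0.28 ± 0.10 (limma adjusted p = 0.142) and -0.38 ± 0.09 (limma adjusted p = 0.0559) did not pass. Of 7 genes of the Kit list 0 passed under IgG (3 at an unadjusted p under 0.05), and Ptpn6, a phosphatase of blood cells that restrains Kit signalling, was higher by 0.60 ± 0.08 between B20 and healthy arrays.

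Aplnr, the apelin receptor of general capillary cells, lay between 12.18 and 12.44 in healthy and between 12.32 and 12.52 in metastasis IgG arrays (0.10 ± 0.10, limma adjusted p = 0.609). Its ligand Apln had 10.65, 11.00 and 10.84 in healthy, 11.41, 11.37 and 11.49 in metastasis IgG and 10.96, 11.26 and 10.98 in metastasis B20 arrays. Apln was lower under B20 than under IgG without overlap, by 0.35 ± 0.10 (limma adjusted p = 0.459), which did not pass.

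In lipolysis and fatty acid uptake (11 genes), Lpl, the partner of Gpihbp1, had 11.89, 11.90 and 11.91 in healthy, 12.55, 12.16 and 12.59 in metastasis IgG and 11.98, 11.90 and 11.83 in metastasis B20 arrays. B20 arrays lay around the healthy level, and the difference of -0.53 ± 0.12 from IgG arrays did not pass (limma adjusted p = 0.413). Among the fatty acid-binding proteins, Fabp5 rose by 1.28 ± 0.16 under IgG and by 0.83 ± 0.15 under B20 relative to healthy arrays, and Fabp4 fell by 0.80 ± 0.21 and by 1.22 ± 0.16. The call of Fabp4 under IgG held in 1 of 6 fits without 1 array and its changes were -0.20 and -0.18 when probe sets with the suffixes of shared probes were left out, so that its probe sets disagreed.

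**Figure D5:**
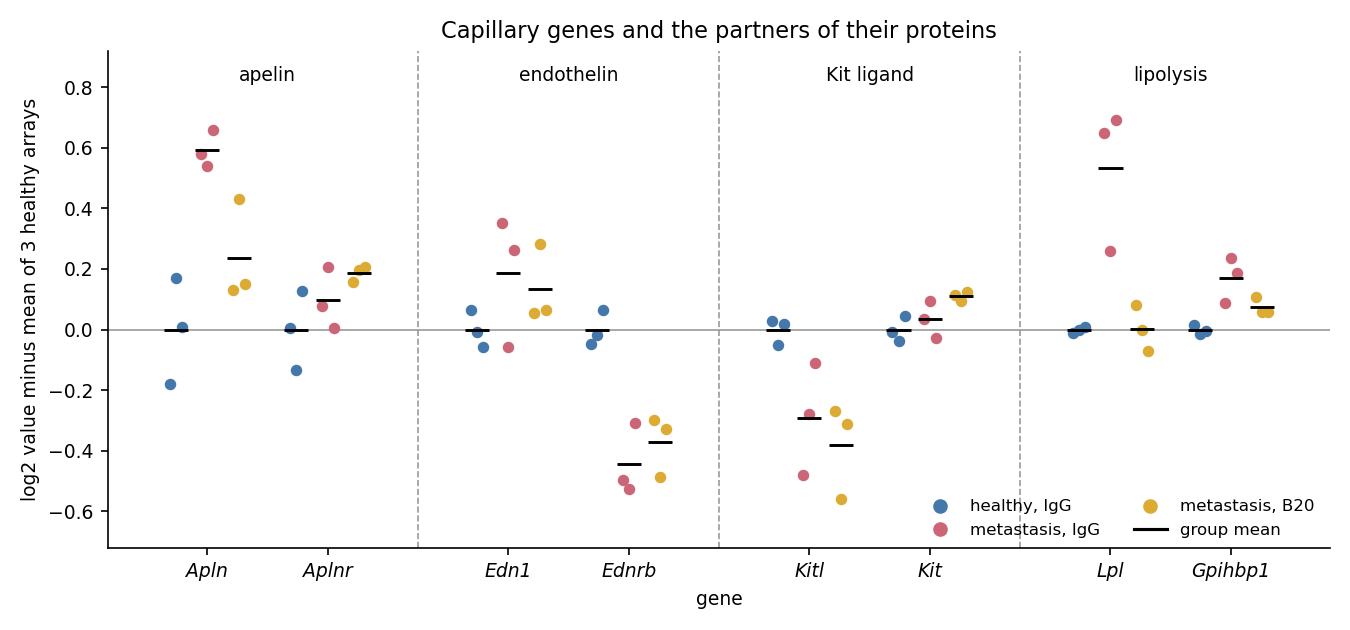
Log2 value of Apln, Edn1, Kitl and Lpl and of the genes of their receptors or carrier (Aplnr, Ednrb, Kit and Gpihbp1) in each array, minus the mean of the 3 healthy arrays (vertical axis, log2 units), 3 arrays per group as points with group means as bars. Apln and Lpl lay above healthy in the metastasis IgG arrays, while Ednrb and Kitl lay below healthy in both metastatic groups.

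Relatives of the other members were read beside the 9.01% of all genes called under IgG and the 6.44% called between B20 and healthy arrays. Among 12 carbonic anhydrases and chloride-bicarbonate exchangers, Car13 (1.58 ± 0.19) and Slc4a1, the exchanger of red blood cells (1.77 ± 0.13), were higher under IgG, and Car5b (-0.67 ± 0.17) and Car8 (-0.62 ± 0.12) were lower. Slc4a1 gave 0.24 under IgG and -0.05 under B20 when probe sets with shared suffixes were left out, so that they disagreed as well. The calls of Car5b held in 2 of 6 fits without 1 array in either comparison and that of Car8 in 4. Under B20, Slc4a1 (1.82 ± 0.08) and Car13 (1.38 ± 0.20) were higher and Car5b (-0.74 ± 0.14) lower than in healthy arrays.

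Of 7 T-box genes Tbx5 was higher than in healthy arrays by 0.49 ± 0.07 under IgG and by 0.50 ± 0.12 under B20, the latter in 1 of 6 fits without 1 array. Of 7 genes of caveolae and diaphragms, Cavin3, a coat protein of caveolae, was higher by 0.71 ± 0.16 under IgG, in 1 of 6 fits without 1 array. Of 6 hemicentins and fibulins, Efemp1, which encodes fibulin-3, was lower beside Hmcn1. Relative to healthy arrays it fell by 0.64 ± 0.15 under IgG (1 of 6 fits) and by 0.90 ± 0.17 under B20 (5 of 6 fits). Among 7 C-type lectins of the Cd93 group and their partners 0 passed in any comparison (2 at an unadjusted p under 0.05 under IgG), and of 6 genes of the dystroglycan complex, to which periaxin binds, Utrn (utrophin) was lower by 0.39 ± 0.08 under IgG, in 0 of 6 fits without 1 array.

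Markers of other cells moved between the same groups. Of 12 macrophage and monocyte genes 10 were higher under IgG (8 to 10 without 1 array; median 0.87), beside 5.55% of all genes that were higher, with C1qa at 2.64 ± 0.14, and their summed linear signal was 6047 to 10189 in healthy, 16151 to 18187 in metastasis IgG and 15331 to 20505 in metastasis B20 arrays. Of 9 proliferation genes 9 were higher (Mki67 by 2.51 ± 0.19, Cdk1 by 2.39 ± 0.25), with sums of 3376 to 4439, 10910 to 15263 and 7426 to 9835. Of 8 venous genes 4 were higher, among them Nr2f2 (1.10 ± 0.08, but 0.33 and not called over the mean of its probe sets). The other 4 lay below 0, down to -0.53, and did not pass, 2 of them without overlap with healthy arrays. The venous sums were 23168 to 23845, 26064 to 26967 and 27435 to 28508. These sums did not overlap between healthy and metastatic arrays. Those of proliferation and venous genes also did not overlap between metastasis IgG and metastasis B20 arrays, where 0 genes of either list passed. Of the 9 proliferation genes, 9 were below 0 under B20 relative to IgG arrays (median -0.58). Of these, 8 had an unadjusted p under 0.05 (limma), beside 8.04% of all genes. Between B20 and healthy arrays 8 of 12 macrophage genes (Ms4a7 by 2.15 ± 0.14), 7 of 9 proliferation genes and 4 of 8 venous genes (Ackr1 by 1.73 ± 0.16) were higher, beside 4.15% of all genes.

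The remaining lists were read beside the 9.01% of all genes called under IgG (5.55% higher and 3.46% lower). Of 9 arterial genes Bmx was lower (-0.66 ± 0.09), and of 6 lymphatic genes Pdpn was higher (0.61 ± 0.15, in 1 of 6 fits without 1 array). Of 10 pericyte and smooth muscle genes Pdgfrb and Rgs5 were higher (in 4 and 5 of 6 fits). Pdgfrb gave 0.32 and was not called without suffixed probe sets. Of 10 epithelial genes Sftpd and Sftpb were higher (each in 1 of 6 fits). Of 10 fibroblast genes 3 were higher, led by Col1a1 (1.48 ± 0.14) and Col1a2 (1.44 ± 0.20), and 1 was lower. The summed fibroblast signal, 11227 to 19623 in healthy and 15536 to 19691 in metastasis IgG arrays, overlapped between groups, as did the epithelial sum (10846 to 23265 and 17681 to 25059). Among mast cell and basophil genes, which include blood cells that carry Kit, 1 of 10 passed (Cd200r3, 0.39 ± 0.10, in 0 of 6 fits without 1 array), with sums of 7418 to 8006 in healthy and 6659 to 7302 in metastasis IgG arrays. Most of this sum came from Gata2, at 12.44 to 12.57 in healthy and 12.19 to 12.31 in metastasis IgG arrays. The next brightest gene, Hdc, lay between 9.53 and 9.72 in healthy arrays. Of 6 Schwann cell genes 0 passed (1 at an unadjusted p under 0.05). The part of these shifts in the levels of Ednrb, Hmcn1 and Fibin, or of other genes above such as Lpl and Fabp5, was not tested.

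The genes whose pattern over the 9 arrays was most like that of a changed member were sought among the 9096 genes above the median level, as a description only, since all arrays share their group structure. They were Rasgef1a, Irs1 and Kif13b for Ednrb, with Pearson's r of 0.987, 0.985 and 0.977. For Hmcn1 they were Ankrd44, Rai2 and Adgrg6 (r of 0.985, 0.980 and 0.978), and for Fibin they were Skida1, Ptdss1 and Crot (r of 0.970, 0.966 and 0.962). Irs1, the insulin receptor substrate, fell by 1.29 under IgG and by 1.10 under B20 relative to healthy arrays, and Adgrg6, an adhesion receptor, fell by 1.07 and 0.78.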

How the data were processed

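RNA of sorted lung ECs was measured in 9 samples, 3 groups of 3, as the labels group them. For 45101 probe sets the authors deposited log2 intensities that they had obtained by robust multiarray average (RMA) normalization in Chipster; these were taken over as they stand. RMA brings all arrays to 1 distribution, so a shift shared by most genes cannot be seen. Genes were named through the platform annotation, and 34945 probe sets of a single gene gave 18193 genes, with the brightest probe set on average over 9 arrays standing for its gene. Probe sets with several genes (932), without a listed gene (9211) and the array's 64 control probe sets, which overlap with these, were left out.

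The members and lists were chosen with earlier results of these data known. For each pair of groups, their 6 arrays alone entered a limma fit (version 3.58.1, R 4.3.3; lmFit and eBayes), after the study's empirical Bayes comparison of 2 groups, with Benjamini-Hochberg adjustment over all genes or all probe sets and a threshold of 0.05. SE is that of the log2 difference, and intervals are at 95%. Named genes were all members, up to 4 called genes of a pathway list and 2 of a cell type list by size of change, Apln, Aplnr, Edn1, Lpl, Kitl and Tbx3 in any case, and the 3 genes nearest in pattern to each changed member. Nckap5 and Emcn entered through the B20 comparison. Kdr, Pecam1 and values of uncalled members of these lists were chosen after they had been seen. Correlations of deviations between arrays of different groups lay between -0.0757 and 0.0138 for the same number and between -0.145 and 0.177 for different numbers. The numbers thus gave no sign of pairs, and no pairing was modelled in the main fits. At 3 arrays per group this cannot exclude a structure shared between groups. Promoter windows came from RefSeq (GRCm38.p6). The fits were tested on simulated data. Plots used matplotlib 3.10.9 under Python 3.11.15.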

Additional observations from a re-analysis of the deposited data

How the results depend on the processing

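The alternatives covered a joint fit of the 9 arrays, a replicate block, leaving out dim genes, averaging probe sets, leaving out suffixed probe sets, median centring, a second quantile normalization, array weights, eBayes with trend and robust settings, the study's thresholds and the omission of each array. Leaving aside the study's thresholds, Hmcn1 stayed called under IgG in 15 of 15 and Ednrb in 11 of 15, while under B20 Fibin was called in 10 of 15 and Ednrb in 9 of 15 against healthy arrays. The members called under IgG (2) were 0 at the study's thresholds, which ask for a log2 change over 0.75, and 1 to 2 without 1 array. Those between B20 and healthy arrays (2) were 1 in the fit of all 9 arrays, where Fibin was lost (adjusted p = 0.125), 1 with the replicate block, where Ednrb was lost (limma adjusted p = 0.0784), 4 without dim genes, 4 with trend and robust settings (both adding Tbx2 and Hmcn1), 0 at the study's thresholds and 0 to 3 without 1 array (3 without B20 array 1, where Hmcn1 was added). The replicate block changed no other member's call. It gave 1176 instead of 1640 calls over all genes under IgG and 841 instead of 1172 under B20, while the study's thresholds gave 507 and 430, trend and robust settings 2219 and 1848, and leaving out 1 array 869 to 1478 and 645 to 1139.

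Without 1 array, the median change between B20 and IgG arrays ran from -0.05 to 0.01 over general capillary genes and from -0.04 to 0.08 over aerocyte genes, and that of general capillary genes between B20 and healthy arrays from 0.01 to 0.06. The latter was 0.01 without suffixed probe sets. The mean aerocyte minus general capillary level under B20 was -0.35 over all probe sets and -0.22 without suffixed ones. Changes near 0 turned sign for Cd93 under IgG (-0.02, median centring), and between B20 and IgG arrays for Car4 (-0.01) and Ednrb (-0.03) over the mean of probe sets, Plvap (0.01 without metastasis IgG array 2; -0.11 to 0.01 without 1 array) and Tbx2 (0.07 without metastasis IgG array 3; -0.11 to 0.07 without 1 array). Slc4a1 between B20 and healthy arrays was -0.05 without suffixed probe sets. The cause was not tested for any of these.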
